A study of Mus musculus with 21 samples.

Results

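This account describes 200 fibroblast wells of embryonic mouse back skin that scored highest for 4 genes of the upper dermis: Crabp1 (a retinoic acid binding protein), Sema6d (a semaphorin), Stmn2 (a microtubule regulator) and Cav1 (a caveolar coat protein). They were chosen from 1371 wells named Fb, for fibroblast, among 1967 wells in all. Of the Fb wells, 1155 held at least 3000 summed UMIs (unique molecular identifiers, each a counted RNA molecule). Of these, 128 were dropped because Foxd1, Smoc1, Hhip, Glis1, Trps1 and Gli1, genes of the forming dermal condensate, together reached 5 or more UMIs per 10000. The remaining 1027 wells were ranked by the mean of ln(1 + UMIs per 10000) over the 4 score genes. The 200 highest are called upper-score wells here, and the 827 below them the other fibroblast wells.

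All groups came from CD1 mouse embryos at embryonic day 15, with no genotype, allele or treatment named for the single-cell samples. The skin was dissociated, live cells were sorted by flow cytometry into wells, and RNA was counted by SORT-seq, a plate-based form of CEL-Seq2. The groups used here are the upper-score wells, the other fibroblast wells and wells named DC0, which stand as a further reference; the labels do not define DC0. A row named eGFP, a fluorescent reporter, held 4 UMIs over all upper-score wells, 25 over the other fibroblast wells and 95 over the DC0 wells of libraries 2 to 7, and the labels do not name the reporter allele behind it.

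The dermis of the embryo separates into an upper layer close to the epidermis and a lower layer that borders the fascia and the forming fat. WNT signals from the epidermis act on the upper layer through beta-catenin and its partners of the TCF and LEF family. Upper cells can form the dermal condensates that become hair follicle papillae, whereas lower cells lay down much of the fibrous matrix and give rise to fat.

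The upper-score wells were spread over all 7 libraries that held fibroblasts, with 22, 18, 29, 31, 42, 34 and 24 wells in libraries 1 to 7. They made up from 12.7% of the ranked wells in library 2 to 23.3% in library 5. Their UMIs, summed within each library, came to between 220435 and 936992, against 1783920 to 4631105 in the other fibroblast wells. The labels do not say whether each library is a separate animal. The p-values therefore cover only how libraries vary, which may be technical. Libraries 3, 5, 6 and 7 share a run code in their descriptions. A further 12 bulk RNA samples of the series were not analysed here.

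The score fell off smoothly, with no gap at the boundary. The lowest upper-score well scored 1.858 and the highest of the others 1.857, and 28 upper-score wells and 36 others lay within 0.1 of the boundary. The median score was 2.188 in upper-score wells and 0.9299 in the others. All 4 score genes had a UMI in 165 of the upper-score wells, and the other 35 had 3 of them. The Stmn2 values varied most, with quartiles of 1.70 and 10.6 UMIs per 10000 and 30 upper-score wells at 0. Of the 128 dropped wells, 40 had scores above the boundary. Of the 200 wells, 145 were chosen again by the score of 3000 randomly drawn UMIs a well. These values chose the wells and are given as a description.

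**Figure D1:**
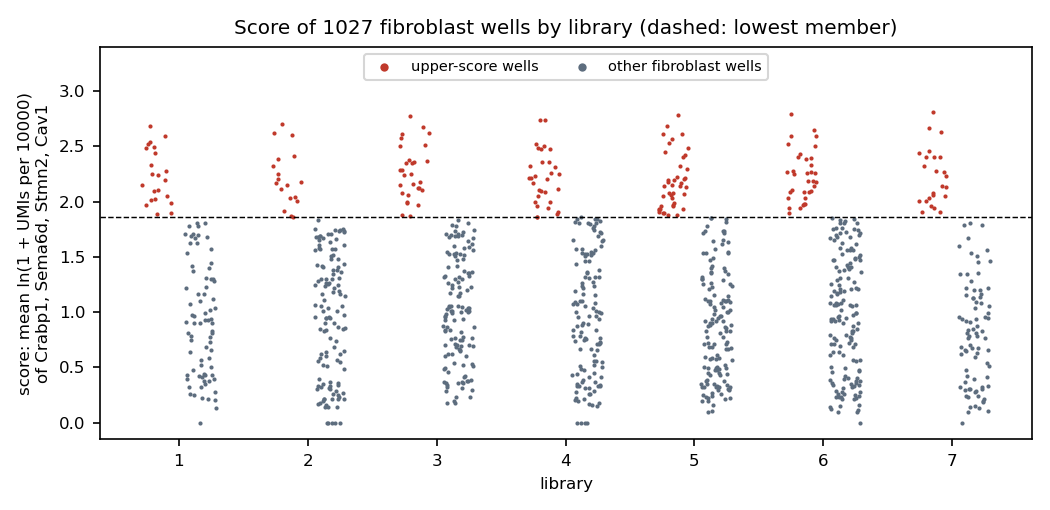
Score of each ranked fibroblast well (mean ln(1 + UMIs per 10000) of the 4 score genes, vertical axis) in libraries 1 to 7 (horizontal axis), upper-score wells left of the other wells in each library. Every library holds wells on both sides of the dashed boundary at 1.858, and the wells close to it form a continuum.

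Genes that the rule did not use were then compared between the classes, within library, on summed UMIs with edgeR's quasi-likelihood test. Because genes that vary together with the score genes across cells had to differ, a call states that a difference was steady over libraries. Of 9474 genes tested, 1135 were higher in upper-score wells (12%) and 1292 lower (13.6%) at an adjusted p under 0.05, which is 25.6% in either direction. At least a 2-fold change, which is a log2 fold change of 1 or more, was reached by 221 of the higher and 464 of the lower genes. The median log2 fold change of all genes tested was 0.02. A gene could pass the filter on low counts through the class in which it is high. Among those named below, this held in the other wells for Ebf1, Osr2, Pdpn, Dkk2, Lgr5, Tgfb2, Fst and Pparg. It also held there for Fgf7, Fgf10, Fgf18, Epha3, Epha4, Slit2, Lox, Loxl1 and most of the largest falls. In upper-score wells it held for Notum, Hey1, Prdm1, Etv4 and Cav2. Folds of these genes are given as a description. When the score was computed on a random 3000 UMIs of each well and the sums on the UMIs not drawn, 952 genes were higher and 1069 lower. Of the 2427 genes called, 1821 were called again in the same direction and 0 in the opposite one.

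The 15 largest rises among genes at an average log2 CPM (UMIs of a gene scaled to a common sum) of at least 5 were Ism1, Cntn4, Nrcam, Nat8l, Inhba, Thbd, Kcnk2, Cd97, Rspo3, Kif21b, Mef2c, Runx1, Elmo1, Lef1 and Casz1. Their log2 fold changes ran from 2.91 for Ism1 to 1.90 for Casz1. The libraries of the classes did not overlap for any of these 15 genes, which was so for 3.73% of all genes tested in this direction. Naming took the largest folds among called genes with 1 direction in all libraries, so this separation was largely set by that choice. Ism1, which encodes the secreted protein isthmin, had 209, 136, 218, 180, 179, 122 and 145 CPM in upper-score wells of libraries 1 to 7, against 22.8, 55.5, 20.04, 23.2, 16.6, 22.3 and 9.83 CPM in the other wells. Its lowest upper-score library stood above every library of the other wells (log2 fold change 2.91, SE 0.17, adjusted p = 5.17e-16). Several of the other rises encode proteins of the cell surface: Cntn4 and Nrcam are adhesion molecules first known from neurons, Thbd is thrombomodulin, Kcnk2 is a potassium channel and Cd97 is an adhesion receptor coupled to G proteins. Cntn4 averaged 159 ± 40.3 CPM in upper-score wells and 25.5 ± 9.09 CPM in the others (SD, n = 7 libraries each). Nrcam averaged 92.2 ± 26.1 CPM in upper-score wells and 16.8 ± 4.66 CPM in the others.

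**Figure D2:**
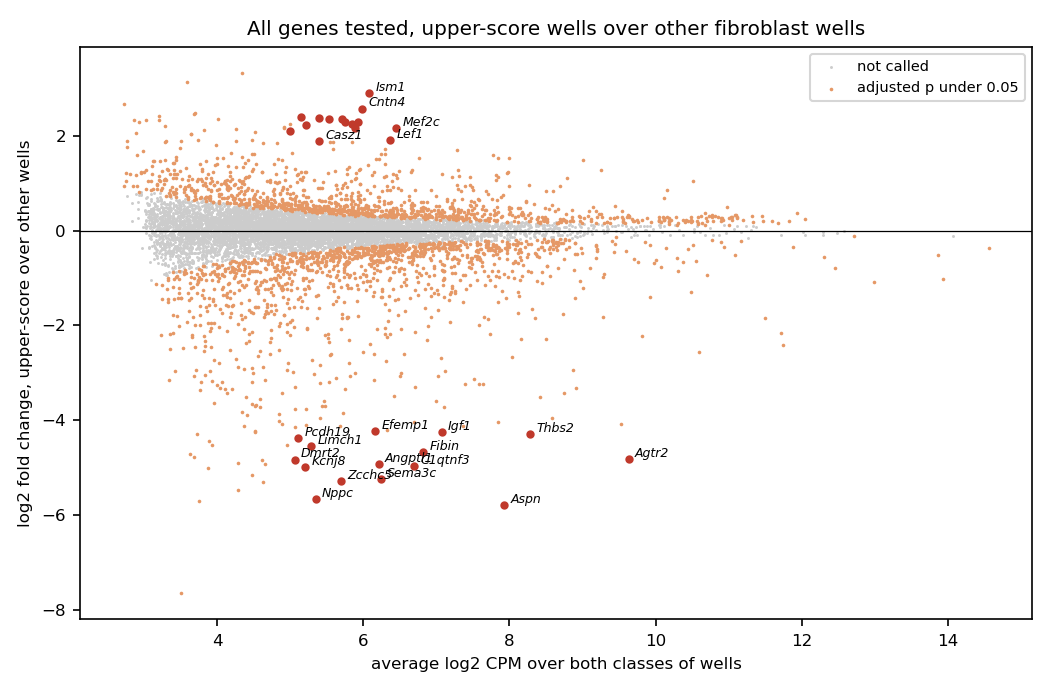
Log2 fold change of upper-score over other fibroblast wells (vertical axis) against average log2 CPM (horizontal axis) for the genes tested, with the 15 largest named rises and falls in red (5 of the rises labelled) and other genes called in orange. The named falls reach -5.79 (Aspn), farther from 0 than the named rises, which reach 2.91 (Ism1). Aspn passed the filter on low counts through the other wells, where it is high.

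Genes of the WNT pathway changed in both directions. Of 38 tested genes of the WNT list, 20 rose and 13 fell, with a median log2 fold change of 0.28 beside 0.02 for all genes. For this and the lists below, the shares over all genes tested were 12% higher and 13.6% lower. Lef1 (chr3:131110471-131224356) had 155, 218, 151, 187, 165, 170 and 145 CPM in upper-score wells of libraries 1 to 7, against 35.9, 70.6, 36.3, 63.9, 36.3, 42.3 and 31.2 CPM in the others. It was higher in 7 of 7 libraries (log2 fold change 1.91, SE 0.10, adjusted p = 8.82e-17). Tcf7 rose at a lower level, averaging 25.3 ± 17.3 CPM in upper-score wells and 6.19 ± 3.38 CPM in the others, while Tcf7l2 fell, averaging 28.5 ± 2.83 CPM in upper-score wells and 115 ± 11 CPM in the others. Beta-catenin itself (Ctnnb1) rose by 0.41 on the log2 scale.

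Several of the feedback genes that WNT signalling is known to switch on rose, though not the ubiquitin ligase gene Znrf3, which was not called (log2 fold change 0.19, adjusted p = 0.661). Rnf43 and Sp8, also on the WNT list, were at 0 in upper-score wells. Nkd1, an inhibitor of Dishevelled, had 289, 426, 390, 385, 434, 382 and 407 CPM in upper-score wells, against 134, 138, 128, 114, 129, 142 and 105 CPM in the others. The classes were separated in every library (log2 fold change 1.54, SE 0.08, adjusted p = 3.81e-17). Axin2, a scaffold of the beta-catenin destruction complex, averaged 100.1 ± 21.9 CPM in upper-score wells and 42.4 ± 10.9 CPM in the others. Further log2 fold changes of feedback genes were 3.14 for Notum (an enzyme that removes the lipid of WNT proteins), 1.16 for Nkd2, 1.31 for Apcdd1, 1.30 for the zinc finger factor Sp5 and 1.23 for the receptor Tnfrsf19. Notum stood on few UMIs, 162 in upper-score wells and 98 in the others, and the call of Apcdd1 was lost with libraries 1, 2 and 4 alone (log2 fold change 0.70, adjusted p = 0.521).

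The secreted WNT regulators split by gene. Rspo3 (chr10:29452416-29535867), an R-spondin that strengthens WNT reception, had 94.7, 132, 108, 148, 168, 96.3 and 192 CPM in upper-score wells, against 20.1, 40.4, 27.4, 19.4, 26.6, 28.1 and 26.4 CPM in the others. No library of the classes overlapped (log2 fold change 2.25, SE 0.14, adjusted p = 2.66e-15). Of the inhibitors, Sfrp5, Wif1 and Dkk1 and the Dickkopf co-receptor Kremen1 rose, by 1.59, 0.93, 1.35 and 1.40 on the log2 scale. Sfrp2, Sfrp1 and Dkk2 fell, with log2 fold changes of -4.04, -2.30 and -3.85. Sfrp5 averaged 363 ± 87.1 CPM in upper-score wells and 119.5 ± 32.1 CPM in the others, whereas Sfrp2 averaged 21.8 ± 8.22 CPM in upper-score wells and 345 ± 27.3 CPM in the others. CPM counts molecules tagged at one end and is not scaled by gene length. Lgr5, an R-spondin receptor, fell (log2 fold change -3.60).

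A search of the RefSeq promoter table (GRCm38.p6, 250 bases before to 50 after each start) was made for CTTTGNT, the core that TCF and LEF factors bind, on both strands. It lay in a window of 5656 of 27025 genes (20.9%). Of the 15 named rises 9 were in the table and 5 of these held it, and of the 15 named falls 14 were in the table and 2 held it. The counts are a description of letters in these windows, and the motif was chosen after the fold changes were seen. The 250 bases before the start are shown for a WNT feedback gene and for the activin gene among the leading rises, with matches in capitals; Sp5 has a pair of matches, 222 and 104 bases before the start (at -222 and -104), and Inhba a single one at -228. Both are on the plus strand, at chr2:70474673-70474922 and chr13:16011601-16011850.
Sp5: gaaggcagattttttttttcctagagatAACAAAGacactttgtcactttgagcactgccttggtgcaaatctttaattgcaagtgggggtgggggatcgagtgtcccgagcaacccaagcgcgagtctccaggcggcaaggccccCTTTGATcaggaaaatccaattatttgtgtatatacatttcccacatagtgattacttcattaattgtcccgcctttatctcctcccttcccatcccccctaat
Inhba: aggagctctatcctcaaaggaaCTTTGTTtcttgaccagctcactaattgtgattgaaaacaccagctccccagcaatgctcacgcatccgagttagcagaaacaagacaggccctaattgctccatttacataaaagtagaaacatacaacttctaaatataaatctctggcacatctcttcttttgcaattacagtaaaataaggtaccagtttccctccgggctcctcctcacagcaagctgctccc

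The Runx genes, which encode DNA-binding factors best known from blood and bone, rose as a family of 3. Runx1 (chr16:92601466-92826149) had 96.4, 154, 122, 161.004, 125, 144.4 and 143.6 CPM in upper-score wells of libraries 1 to 7, against 31.3, 48.8, 20.3, 38.4, 23.3, 28.6 and 20.7 CPM in the others. Runx2 averaged 140.5 ± 34.4 CPM in upper-score wells and 48.1 ± 18.3 CPM in the others, and Runx3 averaged 98.9 ± 18.2 CPM in upper-score wells and 26.7 ± 3.17 CPM in the others. None of the 3 genes had a library in which the classes overlapped, and their log2 fold changes were 2.17, 1.52 and 1.87 (SE 0.13, 0.12 and 0.13). Each of the 3 genes also has, in a RefSeq promoter window, the same pair of TGTGGT motifs, the core that RUNX proteins bind, here read as ACCACA and separated by the letters ga. The pair ACCACANNACCACA, searched on both strands, lay in 7 of 27025 genes (0.0259%), and Runx1, Runx2 and Runx3 are 3 of these 7; a single TGTGGT on either strand lay in 5113 genes (18.9%). The 30 bases around the pair are shown because they are alike in 3 genes that moved together, with the motifs in capitals. The 3 genes were chosen after their fold changes were seen, so these counts too are a description of letters in the windows. The Runx1 stretch (chr16:92826025-92826054, minus strand) runs from 21 to 50 bases after the start, the Runx2 stretch (chr17:44814583-44814612, minus strand) from 16 to 45 bases after it, and the Runx3 stretch (chr4:135120503-135120532, plus strand) from -142 to -113. Runx1 and Runx3 have 2 windows each in the table, and the pair lies in only one of them.
Runx1: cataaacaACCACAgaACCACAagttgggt
Runx2: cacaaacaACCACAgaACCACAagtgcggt
Runx3: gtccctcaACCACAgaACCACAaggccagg

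**Figure D3:**
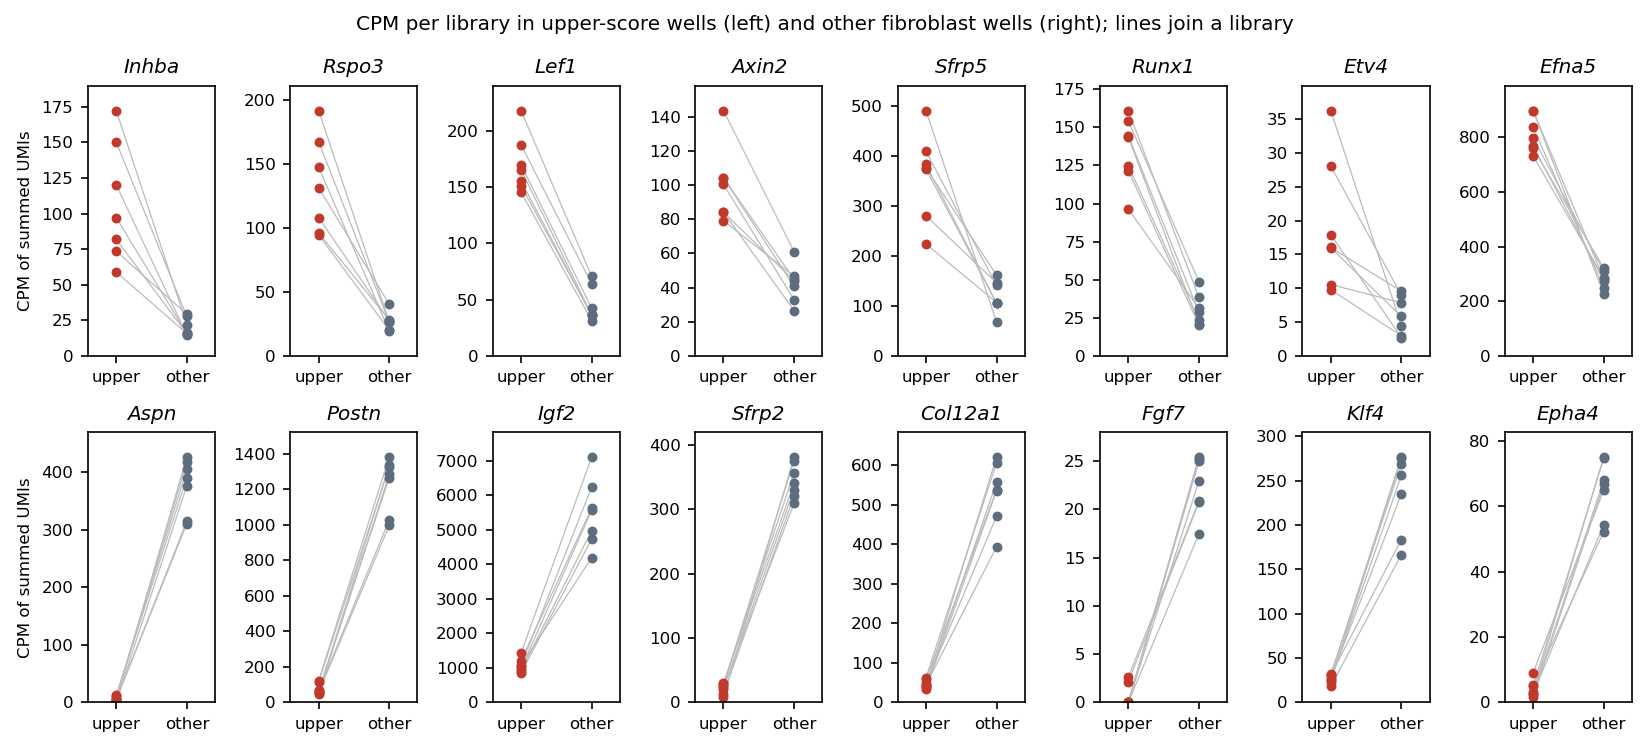
CPM of 16 genes in upper-score wells (left in each panel) and other fibroblast wells (right), a point for each of 7 libraries and a line joining the classes of a library. The upper row holds genes that rose, among them Lef1 (145 to 218 CPM in upper-score wells), and the lower row genes that fell, among them Aspn (1.34 to 12.03 CPM in upper-score wells).

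Other transcription factors of the dermis also divided the classes. Of 39 tested factors on the list, 17 rose and 13 fell, with a median log2 fold change of 0.06. Beside Lef1 and the Runx genes, Twist2, a regulator of dermal fibroblasts, averaged 1517 ± 191 CPM in upper-score wells and 799 ± 74.8 CPM in the others. Prdm1, a zinc finger repressor found in papillary fibroblast progenitors, rose by 1.75 on the log2 scale, and the homeobox gene Irx1 by 0.83. Among the falls were Osr2 (log2 fold change -3.49), Klf4 (-3.23), Ebf1 (-3.20) and Nfib (-1.83). Osr2 and Ebf1 passed the filter on low counts through the other wells, Ebf1 with 12 UMIs over all upper-score wells. Nfib had 229 to 300 CPM in upper-score wells, against 716 to 1003 CPM in the others, so its fall was carried by all 7 libraries.

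The name of upper dermis was held against a list of 25 genes, 23 of them tested. Of these, 15 rose and 7 fell, with a median log2 fold change of 0.97. Among the 7 that fell were Pdpn, which encodes podoplanin (log2 fold change -3.71), Ebf1, and Cyp26b1 (-0.91), which degrades retinoic acid. Pdpn and Ebf1 passed the filter on low counts through the other wells, and the riser Prdm1 through the upper-score wells. Of 18 tested genes on the list for the lower dermis and fascia, 0 rose and 17 fell, with a median of -2.99. Counted per well, the upper dermis list summed to a median of 36.9 UMIs per 10000 in upper-score wells (quartiles 31.4 and 42.9) and 19.5 in the others (13.5 and 27.4). The lower dermis and fascia list summed to a median of 20.7 in upper-score wells (15.5 and 25.8) and 59.3 in the others (30.7 and 148). No upper-score well (0 of 200) lay above the median of the other wells for the lower list, and 196 of 200 lay above it for the upper list. Wells are not replicates, and wells and lists were chosen with earlier results of these data known, so these counts are a description. The upper list also shares genes with the WNT list, among them Lef1, Axin2, Nkd1 and Rspo3. The other wells were the more varied class, and the highest of them on the upper list and the lowest on the lower list lay within the range of upper-score wells.

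**Figure D4:**
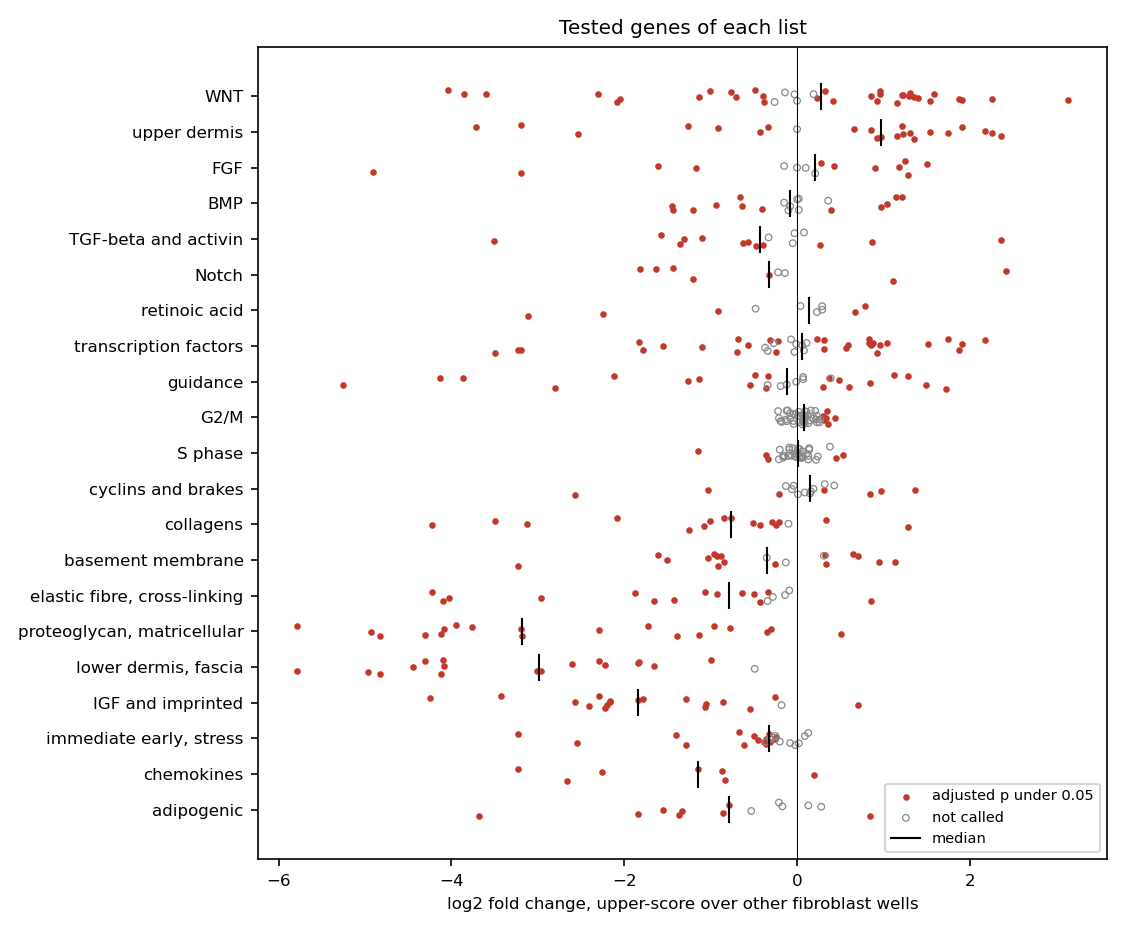
Log2 fold change of upper-score over other fibroblast wells (horizontal axis) for each tested gene of 21 gene lists (rows), genes called in red, genes not called as open circles and the list median as a bar. The lists of the lower dermis and of proteoglycans lie almost wholly below 0, the S phase and G2/M lists lie around 0, and the WNT list spreads to both sides.

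Genes of the TGF-beta family moved in both directions. Inhba (chr13:16011851-16031621), whose protein dimerises to activin A, had 150, 59.0, 172.4, 81.8, 97.1, 73.5 and 120 CPM in upper-score wells of libraries 1 to 7, against 27.7, 15.7, 22.1, 15.8, 15.8, 29.2 and 14.6 CPM in the others. The lowest upper-score library held more than the highest of the others (log2 fold change 2.36, SE 0.16, adjusted p = 4.34e-14). Thinned to 3000 UMIs a well, 24% of upper-score wells had an Inhba UMI and 4.96% of the others; unthinned, these shares were 57.0% and 23.5%. Of 16 tested genes of the TGF-beta and activin list, 3 rose and 9 fell, and the ligand Tgfb2 fell (log2 fold change -3.51), as did Inhbb, which encodes another activin subunit (-0.57). Fst, which encodes the activin-binding follistatin, fell by 1.21 on the log2 scale.

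Of 19 tested genes of the BMP list, 5 rose and 7 fell, with a median of -0.08. The ligands differed: Bmp2 fell (log2 fold change -0.66, adjusted p = 0.0311), Bmp7 was not called (0.36, adjusted p = 0.134), and Bmp4 rose. Bmp4 averaged 76.6 ± 23.4 CPM in upper-score wells and 39.1 ± 8.56 CPM in the others, and overlapped between classes; its call was lost in 1 of 3 random draws of thinned wells (adjusted p = 0.0572). The signal transducer Smad1 rose by 1.14 on the log2 scale.

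Of 15 tested genes of the FGF list, 7 rose and 4 fell; the falls were the ligands Fgf7, Fgf10 and Fgf18 and the feedback inhibitor Spry1 (log2 fold change -1.17). The receptor gene Fgfr1 had 942, 907, 895, 963, 983, 832 and 879 CPM in upper-score wells, against 346, 388, 345, 370.1, 370.97, 369.9 and 328 CPM in the others. Its spread within each class was small beside the difference (log2 fold change 1.28, SE 0.06, adjusted p = 3.08e-19). Etv4, Etv5 and Dusp6, which FGF signalling is known to induce, rose by 1.5, 1.18 and 0.90 on the log2 scale. The call of Etv4 was lost with libraries 1, 2 and 4 alone (adjusted p = 0.0777) and with 100 upper-score wells (0.121), and that of Etv5 in 1 of 3 random draws of thinned wells (0.315). The ligand Fgf7 had 3 UMIs in all upper-score wells together and 528 in the others, and Fgf10 and Fgf18 averaged 11.7 ± 9.56 and 1.88 ± 2.21 CPM in upper-score wells and 35.8 ± 10.5 and 18.0 ± 4.44 CPM in the others.

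Notch targets split. Of 9 tested genes of that list, 2 rose and 5 fell: the transcriptional repressors Hey1 and Hey2 rose by 2.42 and 1.11 on the log2 scale, and Hes1 (-1.63), Heyl (-1.44), Jag1 (-1.82), Notch1 (-1.20) and Notch2 (-0.32) fell. Hey1 had 18.1 to 29.4 CPM in upper-score wells, against 3.37 to 5.61 CPM in the others. It passed the filter on low counts through the upper-score wells, where it is high, so its fold is a description. Of 10 tested genes for retinoic acid handling, 2 rose and 3 fell. Crabp2 and the receptor gene Rarg rose by 0.67 and 0.79 on the log2 scale. In this list the call of Cyp26b1 was lost under 4 alternatives, with adjusted p between 0.136 and 0.422, that of Crabp2 with libraries 1, 2 and 4 alone (0.271) and that of Rarg in 2 of 3 random draws of thinned wells (0.0933 and 0.47). The call of Hey2 was lost within libraries 3, 5, 6 and 7 (0.0796). Of 8 tested hedgehog pathway genes, 2 rose and 1 fell, beside 12% and 13.6% of all genes tested.

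Guidance molecules were among the genes with the widest contrast. Of 27 tested, 9 rose and 11 fell. Efna5, which encodes a membrane-anchored ephrin ligand, had 836, 798, 759, 768, 898, 731 and 897 CPM in upper-score wells, against 250, 309, 322, 275, 281, 283 and 226 CPM in the others, with no overlap (log2 fold change 1.49, SE 0.07, adjusted p = 1.99e-18). Genes for Eph receptors, to which ephrins bind, fell: Epha4 averaged 4.23 ± 2.49 CPM in upper-score wells and 65.2 ± 8.98 CPM in the others, and Epha3 averaged 2.07 ± 2.11 CPM in upper-score wells and 34.7 ± 4.91 CPM in the others. The receptor gene Robo2 rose by 1.72 on the log2 scale and its ligand gene Slit2 fell (log2 fold change -2.80). Of 25 tested genes for adhesion and cytoskeleton, 6 rose and 9 fell; Cav2, the partner of the score gene Cav1, rose by 2.12.

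The 15 largest falls were Aspn, Nppc, Zcchc5, Sema3c, Kcnj8, C1qtnf3, Angptl1, Dmrt2, Agtr2, Fibin, Limch1, Pcdh19, Thbs2, Igf1 and Efemp1, with log2 fold changes from -5.79 to -4.22. None of them had libraries that overlapped between classes, which was so for 4.99% of all genes tested in this direction. As with the rises, this separation was largely set by the rule for naming genes. Nppc, Zcchc5, Sema3c, Kcnj8 and Pcdh19 held 4 to 12 UMIs each over all upper-score wells. All of the 15 but Agtr2 and Thbs2 passed the filter on low counts through the other wells, where they are high. The folds of these genes are given as a description. Aspn (chr13:49544443-49567565), which encodes the small leucine-rich proteoglycan asporin, had 4.90, 4.54, 12.03, 5.28, 8.54, 1.34 and 10.8 CPM in upper-score wells of libraries 1 to 7, against 315, 427, 391, 311, 418, 377 and 405 CPM in the others. It was nearly empty in every upper-score library, with 30 UMIs in all beside 8947 in the other wells. Thinned to 3000 UMIs, 2.5% of upper-score wells and 29.6% of the others had an Aspn UMI, and the unthinned shares were 13.5% and 47.4%. Agtr2, which encodes an angiotensin II receptor, was the most abundant of the 15 in the other wells. It had 49, 31.8, 50.8, 34.3, 75.8, 34.8 and 64.6 CPM in upper-score wells, against 1390, 1224, 1195, 1091, 1803, 1251 and 1520 CPM in the others. Further falls among the 15 included secreted signals: Igf1, Sema3c and Nppc, the gene of C-type natriuretic peptide.

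Matrix genes fell broadly. Of 17 tested collagen genes, 2 rose and 14 fell, with a median log2 fold change of -0.76. The type I collagen gene Col1a2 averaged 10470 ± 1646 CPM in upper-score wells and 20100 ± 2943 CPM in the others, a log2 fold change of -1.01 (SE 0.04). The fall was steeper for Col12a1 (-3.50) and Col14a1 (-3.13), which encode collagens that sit on fibril surfaces, and Col8a1 rose by 1.28. Of 19 tested proteoglycan and matricellular genes, 1 rose and 18 fell, with a median of -3.18; the riser was Lum, lumican, which averaged 2421 ± 296 CPM in upper-score wells and 1609 ± 80.4 CPM in the others. Postn, periostin, averaged 75.6 ± 30.2 CPM in upper-score wells and 1232 ± 154 CPM in the others, and Fn1, fibronectin, 529 ± 142 CPM in upper-score wells and 1311 ± 133 CPM in the others. The elastic fibre and cross-linking list had 1 rise and 13 falls among 18, with Loxl1 (-4.03) and Lox (-2.96), genes of lysyl oxidases, among the falls.

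Basement membrane genes did not follow the fibrous matrix as a whole. Of 19 tested, 6 rose and 10 fell. Frem1, a protein of the junction between epidermis and dermis, averaged 231.5 ± 27.9 CPM in upper-score wells and 100.3 ± 12.3 CPM in the others, and Col7a1, the collagen of anchoring fibrils, averaged 239 ± 48.5 CPM in upper-score wells and 119 ± 27.9 CPM in the others. Both genes were higher in 7 of 7 libraries.

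Imprinted and insulin-like growth factor genes fell nearly as a block: of 19 tested, 1 rose and 17 fell, with a median of -1.84. Igf2 (chr7:142650766-142666816), an imprinted growth factor, had 1070, 857, 1209, 921, 1431, 981 and 1069 CPM in upper-score wells, against 4196, 4738, 5635, 4983, 7115, 5571 and 6240 CPM in the others. The classes stood far apart in every library (log2 fold change -2.41, SE 0.06, adjusted p = 5.16e-27). H19, the imprinted noncoding neighbour of Igf2, had a log2 fold change of -2.16, Dlk1 -1.84, Mest -2.22 and the zinc finger gene Plagl1 -3.43. The riser was Igfbp5, an IGF-binding protein, which averaged 1424 ± 223 CPM in upper-score wells and 830 ± 95.2 CPM in the others.

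The cell division genes differed little. Of 38 tested S phase genes, 2 rose and 3 fell, with a median of 0.01. Of 50 tested G2/M genes, 6 rose and 0 fell, with a median of 0.08 and no log2 fold change above 0.44 (Cdc20). Over all genes tested, 12% rose and 13.6% fell. Per well, the G2/M list summed to a median of 22.5 UMIs per 10000 in upper-score wells and 20.3 in the others, and in both classes the upper quartile, 88.2 and 90.5, stood far above it. Regulators outside these lists did move. The cyclin gene Ccnd1 averaged 522 ± 64 CPM in upper-score wells and 286 ± 62.7 CPM in the others, and Mycn rose by 1.36 on the log2 scale. Of the inhibitors of cyclin-dependent kinases, Cdkn1a rose by 0.97, and the imprinted Cdkn1c fell to 434 ± 129 CPM in upper-score wells, against 2438 ± 557 CPM in the others. With only the wells low in S phase and G2/M genes, 729 genes were higher and 920 lower.

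Genes of stress, inflammation and fat formation were lower. Of 25 tested immediate early and stress genes, which tissue dissociation is known to induce, 0 rose and 15 fell, with a median of -0.33; Klf4 (-3.23) and Fosb (-1.28) were among them. Of 7 tested chemokine and cytokine genes, 6 fell and 1 rose. Cxcl1, a neutrophil attractant, averaged 31.9 ± 18.2 CPM in upper-score wells and 273 ± 44.4 CPM in the others, and Kitl, the ligand of the Kit receptor, 63.6 ± 16.5 CPM in upper-score wells and 374 ± 62.3 CPM in the others. The riser was Cxcl14 by 0.20, a call lost under 11 of the alternatives, with adjusted p between 0.0658 and 0.735. Of 13 tested adipogenic genes, 1 rose and 7 fell: Pparg, the master regulator of fat cells, had 9 UMIs in upper-score wells and 626 in the others, and Cd24a rose by 0.84. Of 16 tested glycolysis and hypoxia genes, 0 rose and 3 fell, a count near the share of 13.6% that fell among all genes tested.

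The wells themselves differed in the UMIs counted. The median upper-score well held 8156 to 26630 UMIs by library, against 12260 to 36810 in the others, and it was lower in 7 of 7 libraries (mean log2 difference -0.50 ± 0.12 SD, n = 7). The exact two-sided sign-flip permutation p was 0.0156, the smallest that 7 libraries can give. The ratio to spike-in UMIs differed as much (-0.50 ± 0.12, p = 0.0156 by the same exact test). Spike-in UMIs were lower in 6 of 7 libraries (-0.08 ± 0.07, exact permutation p = 0.0469). Genes per well were lower in 7 of 7 libraries (-0.21 ± 0.08, p = 0.0156 by the exact test), and in wells thinned to 3000 UMIs they were higher in 7 of 7 libraries (0.03 ± 0.02, p = 0.0156 by the exact test). Fewer RNA molecules per cell and poorer capture of the cells cannot be told apart. After every well was thinned to 3000 UMIs, 251 genes were higher and 309 lower of 3321 tested, and of the 1225 genes called before and tested again 542 were called in the same direction and 0 in the opposite one.

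Markers of other cell types were low in both classes. The summed markers of immune cells came to between 20.1 and 40.8 CPM in upper-score wells and 14.8 and 35.6 CPM in the others. Keratinocyte markers summed to between 44.9 and 524 CPM in upper-score wells and 36.6 and 546.5 CPM in the others; 5 of 14 were tested, 1 was higher (Krt5, by 0.37 on the log2 scale) and Krt8 and Krt18 were at 0 in upper-score wells. Sums for endothelium were between 42.7 and 89.6 CPM in upper-score wells and 94.6 and 119 CPM in the others, and sums for mural cells, which line small vessels, 169 to 240 CPM in upper-score wells and 279 to 354 CPM in the others. The lymphatic endothelium list summed to between 0 and 17.9 CPM in upper-score wells and 38.3 and 80.7 CPM in the others, with no overlap. Its 1 tested gene, Pdpn, was lower, and Pdpn alone had 33.0 to 71.8 CPM in the others. Pdpn is also on the upper dermis list, so most of this sum was not particular to lymphatic cells. The cartilage and tendon list summed to between 23.8 and 44.1 CPM in upper-score wells and 39.8 and 106.8 CPM in the others, with 1 of its 3 tested genes higher and 2 lower. Sums for Schwann cells, melanoblasts, neurons, muscle and red blood cells had medians of at most 127 CPM in upper-score wells and 154.3 CPM in the others. The condensate list summed to between 356.3 and 568.8 CPM in upper-score wells and 324.2 and 444.3 CPM in the others, with 4 of its 9 tested genes higher and 4 lower. The part of these sums in the results was not tested. General fibroblast genes were present throughout: Pdgfra averaged 358 ± 45.9 CPM in upper-score wells and 316 ± 22.4 CPM in the others, a difference that was not called.

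The upper-score wells were next set against the 20 DC0 wells of 3000 or more UMIs in libraries 2 to 7, in 6 library pairs. These sums rest on 2 to 6 DC0 wells and 20707 to 191382 DC0 UMIs a library, so a single DC0 UMI is worth up to 48.3 CPM. Of 3810 genes tested, 284 were called; 3.78% of those tested were higher in upper-score wells and 3.67% lower. Without library 5, which holds the most DC0 wells, 78 were higher and 82 lower. The rule for naming rises picked, among others, Cxcl12, Dpt, Sfrp5, Irf1, Nrn1, Flnc and Angptl4, on 5 to 19 DC0 UMIs each. These genes passed the filter on low counts through the upper-score wells, where they are high, so no fold is given for them. Within libraries 2 and 4 alone the calls of Cxcl12 (adjusted p = 0.607), Irf1 (0.164) and Sfrp5 (0.224) were lost. Among the 15 largest falls were Igf1, Fgf10, Cyp26b1, Nptx2, Bmp7, Col23a1, Prdm1, Tbx18, Tmod2, Cdkn1c, Nrp2, Spon1, Dclk1 and Bmp4. Of these, all but Cdkn1c and Dclk1 passed the filter on low counts through the DC0 wells, where they are high. No fold is given for the genes that did so. The rule also picked Kcnk2 and Nrcam with 1 DC0 UMI each, Tmem45a with 2, Casz1, Leprel4 and Kcna4 with 3 each and Islr with 4. They passed the filter on low counts through the upper-score wells, so neither a fold nor a rank is given for them; the calls of Nrcam (adjusted p = 0.364) and Kcnk2 (0.0921) were lost within libraries 2 and 4 alone, and that of Kcna4 without library 3 (0.0557). The wells with 5 or more UMIs per 10000 of the 6 condensate genes had been dropped from the fibroblasts but not from DC0, so the contrast was partly set by the rule.

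Signals of the condensate separated the groups. Fgf10 had 9.07, 13.4, 0, 29.9, 6.69 and 16.1 CPM in upper-score wells of libraries 2 to 7, against 483, 357, 317, 387, 450 and 400 CPM in DC0 wells. It was tested through the DC0 wells, where it is high, so no fold is given. Bmp4 had 45.4, 115, 58.1, 88.6, 69.5 and 68.2 CPM in upper-score wells, against 676, 314, 1410, 1217, 774 and 169 CPM in DC0 wells. No upper-score library reached a DC0 library for either gene, which was so for 1.97% of the genes tested, counting those lower in upper-score wells. Both genes are named falls, and the rule for naming favours such genes. Of 7 tested genes of the condensate list, 6 were lower in upper-score wells and 0 higher, beside 3.67% and 3.78% of all genes tested. Lef1, Prdm1, Bmp4 and Cdkn1a, which were higher in upper-score wells than in the other fibroblast wells, were lower than in DC0 wells. The log2 fold changes were -1.37 for Lef1 and -3.45 for Cdkn1a. None is given for Prdm1 and Bmp4, which passed the filter through the DC0 wells. The call of Lef1 was lost without library 4, 5 or 6 (adjusted p 0.0722, 0.0767 and 0.0844) and within libraries 3, 5, 6 and 7 (0.0548).

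Not all genes of the upper-score wells were higher still in DC0 wells. Inhba had 59.0, 172.4, 81.8, 97.1, 73.5 and 120 CPM in upper-score wells of libraries 2 to 7, against 0, 28.6, 28.8, 36.6, 24.98 and 0 CPM in DC0 wells, where it rested on 11 UMIs. It passed the filter on low counts through the upper-score wells, so no fold is given. Its call was lost without library 3. Sfrp5 had 224 to 410 CPM in upper-score wells, against 0 to 100 CPM in DC0 wells. Efna5 and Lum were also higher in upper-score wells, with log2 fold changes of 2.43 and 1.82. Irx1 was higher too, but like Sfrp5 it passed the filter through the upper-score wells, so no fold is given. Col1a1 was higher than in DC0 wells too (1.53), but lower than in the other fibroblast wells. Its library median was 5110 CPM in upper-score wells and 10700 CPM in the other fibroblast wells. Axin2, at 79.2 to 104 CPM in upper-score wells of these libraries, was not called against DC0 wells (log2 fold change 0.13, SE 0.37, adjusted p = 0.917).

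**Figure D5:**
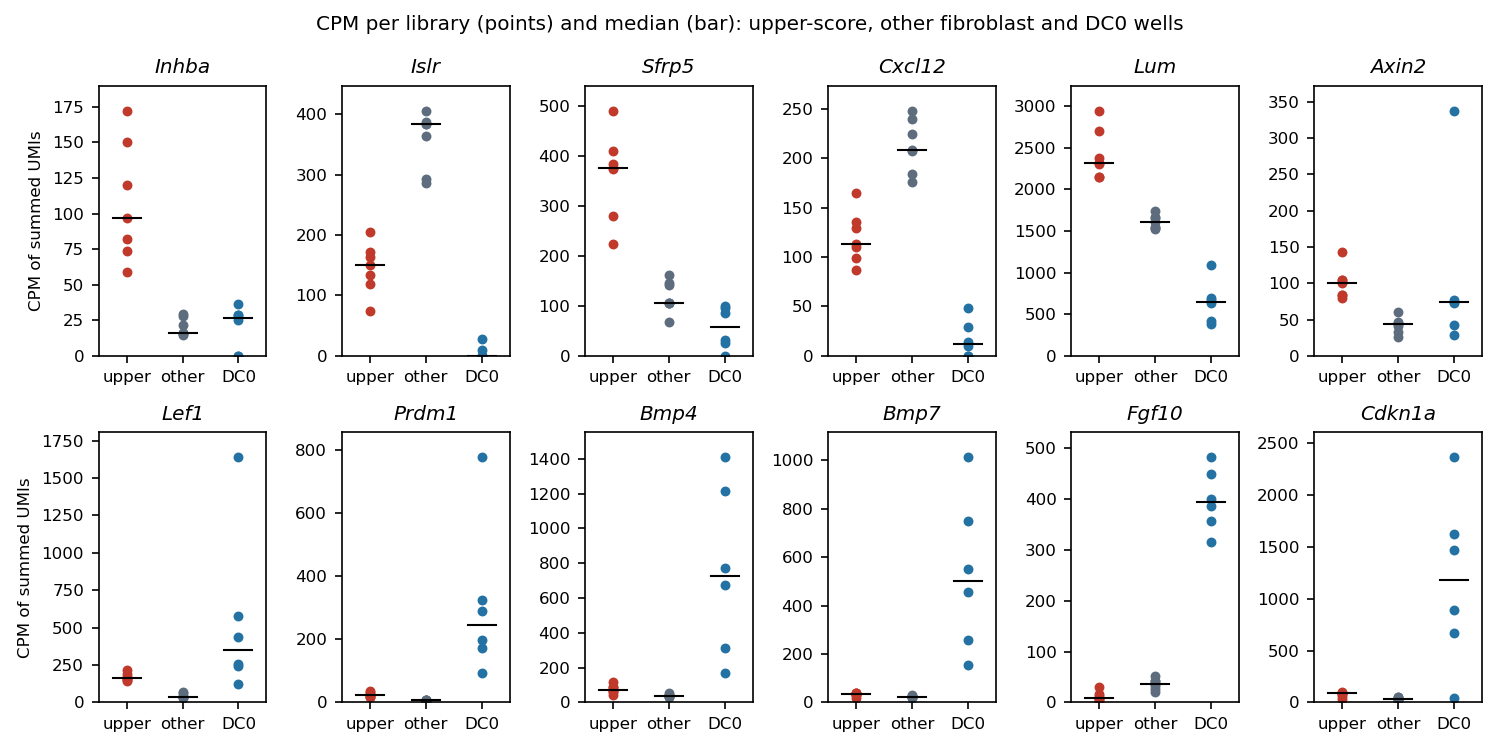
CPM of 12 genes in upper-score wells (left), other fibroblast wells (middle) and DC0 wells (right), a point for each library (7, 7 and 6) and a bar at the median. Inhba and Sfrp5 are highest in upper-score wells, and Bmp4, Bmp7, Fgf10 and Prdm1 are highest in DC0 wells.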

How the data were processed

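Single cells of CD1 mouse back skin were measured in 9 SORT-seq libraries, of which the 7 that held Fb wells were used. The authors deposited expected counts: each value equals ln(1 − k/4096)/ln(1 − 1/4096) for a whole number k, a correction for UMI collisions, and was rounded here to whole UMIs, which changed 13.5% of the 7480233 values above 0. Per the submitters' processing notes the build was mm10 and TopHat2, Bowtie2, Cufflinks and BWA were used, with no role given. Of the columns, 206 were mapped to no sample here and not used; wells of libraries 8 and 9 and the DC0 wells under 3000 UMIs entered no comparison. The 86 spike-in rows stayed out of all sums and tests.

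UMIs were summed per library and class and tested with edgeR 4.0.16 (R 4.3.3; TMM scaling, filterByExpr, quasi-likelihood test, Benjamini-Hochberg adjustment over all genes tested). The deposited unit is expected counts, where whole counts had been assumed; the test is the same after rounding. The library is a block, because both classes of a library come from the same library. Quantities per well were compared by an exact sign-flip permutation test of log2 medians. On simulated counts with the sums of the first comparison (9352 genes), 54% of 1.5-fold and 92% of 2-fold changes were recovered; with those of the DC0 comparison (3719 genes), 31.1% of 2-fold and 87.2% of 3-fold changes.

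The members and gene lists were chosen with earlier results of these data known. Genes named are the 15 largest rises and falls past an adjusted p of 0.05 that moved by 0.58 or more on the log2 scale, reached 5 in average log2 CPM and kept 1 direction in all libraries, and, from each list, up to 4 called genes of smallest p; other genes named were chosen after their values were seen. Intervals and p-values cover the spread between libraries and counting error only. Some of the genes picked by the naming rule are not reported here.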

Additional observations from a re-analysis of the deposited data

Results flagged for a closer look

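A library was set apart from the other 6 of its class where its gap to the nearest of them exceeded 0.568 of the range over all 7. This was so for 26 of 238 groups of values, and chance gives about 1 in 20.

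In library 2, whose ranked wells held the lowest share of upper-score wells (12.7%), the other fibroblast wells stood highest for 5 genes that were higher in upper-score wells: Ism1 (55.5 CPM), Kcnk2 (60.54 CPM), Rspo3 (40.36 CPM), Elmo1 (37.0 CPM) and Notum (12.89 CPM). The other fibroblast wells of this library were also lowest for Fn1 (1042 CPM) and for genes per thinned well (1511). The upper-score wells of library 2 stood highest for Rarg (149.7 CPM), Lgr5 (22.68 CPM, on 5 UMIs) and Dmrt2 (9.073 CPM, on 2 UMIs).

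In library 1, upper-score wells were highest for Axin2 (143.7 CPM) and Fgf18 (6.533 CPM, on 4 UMIs) and lowest for Nkd1 (289.1 CPM), and the other wells were highest for Apcdd1 (17.14 CPM). The median spike-in UMIs of library 1 were highest in both classes, at 650 in upper-score wells and 710 in the others.

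In library 4, upper-score wells were lowest for Dlk1 (865.7 CPM) and Wif1 (161.004 CPM) and highest for Kremen1 (248.1 CPM); the other wells were lowest for Col1a1 (4886 CPM) and highest for Zcchc5 (107.5 CPM). In library 3, upper-score wells were highest for Cyp26b1 (72.16 CPM) and Tgfb2 (8.018 CPM), which had 9 UMIs over all upper-score wells. Library 7 was highest for Limch1 in upper-score wells (8.972 CPM, on 5 UMIs) and for Angptl1 in the other wells (123.7 CPM), and library 5 for Cyp26b1 in the other wells (82.7 CPM).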

How the results depend on the processing

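No named gene changed direction between the classes under any alternative run, and 0 of the 2427 calls turned. Counts of genes higher and lower in upper-score wells than in the other fibroblast wells were 374 and 636 with libraries 1, 2 and 4 alone. In wells thinned to 3000 UMIs, where fewer genes could be tested, they were 251 and 309, and in 2 further random draws, added after the data were seen, 267 and 291, and 259 and 309. There were 729 higher in wells low in cell cycle genes and 679 with 100 upper-score wells. Leaving out 1 library gave 933 to 1140 higher and 1072 to 1341 lower. The fit with no replicate block gave 811 higher and 1032 lower. Against DC0 wells, 383 were higher with no filter on low counts (69% of calls, against 50.7% with it), 66 higher and 106 lower with libraries 2 and 4 alone (38.4% of calls higher), and 29 higher and 29 lower in thinned wells (28 and 29, and 20 and 27, in the further draws); leaving out 1 library gave 78 to 201 higher and 82 to 168 lower, and without the replicate block 206 and 201. The alternative of libraries with at least 5 DC0 wells was not run, since a single library has them.

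Within libraries 3, 5, 6 and 7 and within libraries 1, 2 and 4, where too few libraries remain to pass the threshold, the mean log2 differences were -0.48 and -0.53 in UMIs per well, -0.06 and -0.11 in spike-in UMIs, -0.58 and -0.39 in their ratio, -0.18 and -0.25 in genes per well and 0.02 and 0.03 in genes per thinned well. The difference in genes per well was -0.13 at a minimum of 6000 UMIs and -0.17 with wells chosen on thinned UMIs, an alternative added after the data were seen. Calls of Rarg, Bmp4, Cyp26b1, Etv5 and Cxcl14 changed between random draws of thinned wells, so single calls there rest on the draw. The difference in spike-in UMIs, -0.08 over all 7 libraries, was past the threshold in few settings: it was -0.01 for means, -0.08 against all other Fb wells, -0.03 at 6000 UMIs, -0.03 with wells chosen on thinned UMIs, and -0.10 to -0.07 with 1 library left out.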
